A study of Homo sapiens with 2 samples.

Results

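The collagen genes were taken as all protein-coding genes whose symbol is COL, a number, A and a number, and 44 genes met that rule. Of these, 41 were among the 28303 genes listed in both libraries, and COL8A1, COL9A1 and COL22A1 were not analysed here. Membership was set by name alone, with no measured value. A gene was counted as past the filter when its mean FPKM (a fragment count divided by exon length and library depth) over both libraries was at least 1, and 17 collagen genes and 11945 genes in all passed it. The other 24 collagen genes lay between 0 and 1.09 FPKM in the overexpression library and between 0 and 0.897 FPKM in the control library.

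Collagens are the main structural proteins of the extracellular matrix. Each molecule is a triple helix of 3 chains built from Gly-X-Y triplets, in which glycine returns at a fixed spacing, and some molecules combine chains of different genes. Fibrillar collagens build the fibres of connective tissue, type IV collagen builds the network of basement membranes, and other families tie fibres together or anchor cells to them. In the stomach wall collagen is mostly made by fibroblasts, and in tumours by the fibroblasts of the stroma.

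The cells were HGC27, an established human gastric cancer line, at passage 4 to 6. One library came from cells transfected with pcDNA3.1-linc01133, a plasmid that carries the long non-coding RNA LINC01133, and the other from cells transfected with pcDNA3.1-control. Both used Turbofect reagent, and both were harvested 48 h after transfection. Messenger RNA was captured through its poly(A) tail and sequenced, and the comparison asks what differs when LINC01133 is overexpressed. The labels describe no selection of transfected cells, so each library may hold cells that took up no plasmid.

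Each group held 1 library, so no difference given here has a replicate check and no p-value was computed. The depth was 16302581 counted fragments in the overexpression library and 15666629 in the control library. Intervals are 95% and cover counting error only. LINC01133 had 1.44 FPKM in the overexpression library (1.13 to 1.81, 74 fragments) and 0.0809 FPKM in the control library (0.0220 to 0.207, 4 fragments), a ratio of 17.8 (6.66 to 67.0).

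Of 3 mesenchymal markers, 2 passed the filter. VIM, the intermediate filament vimentin, had 210.0 FPKM in the overexpression library and 198 FPKM in the control library. ZEB1, a repressor of epithelial genes, had 7.82 FPKM in the overexpression library and 3.06 FPKM in the control library, a ratio of 2.55 (2.28 to 2.87). CDH2, N-cadherin, was near 0, with 6 fragments in the overexpression library and 4 in the control library. The 7 fibroblast markers, all measured, summed to 97.4 FPKM in the overexpression library and 67.1 FPKM in the control library, led by LUM, at 56.6 FPKM in the overexpression library and 30.5 FPKM in the control library. Not all of them leaned that way: THY1 had 10.1 FPKM in the overexpression library and 15.8 FPKM in the control library, PDGFRB had a ratio of 0.996 (0.833 to 1.19), and PDPN was under 0.5 FPKM in both. The median log2 ratio of the 6 fibroblast markers past the filter was 0.64, and -0.08 with the GC and length trends described below subtracted. Of 5 epithelial markers, 4 were measured and summed to 0.498 FPKM in the overexpression library and 0.361 FPKM in the control library, and the keratin KRT18 was at 0 in both. Of 4 gastric epithelial markers, 2 were measured, TFF2 and MUC5AC, and both were at 0 in both libraries. The epithelial and gastric markers that were measured were thus at or near 0 in the cells labelled as a gastric cancer line. KRT19, TFF1 and GKN1 were not analysed here. Of 4 endothelial markers 3 were measured, CDH5 and KDR were at 0 in both libraries, and the sum was 0.0236 FPKM in the overexpression library and 0.0553 FPKM in the control library. Of 4 blood markers 2 were measured, PTPRC and CD14, which summed to 0.359 FPKM in the overexpression library and 0.775 FPKM in the control library. In bulk RNA, fewer cells of a type and less RNA per cell cannot be told apart, and the part of the fibroblast markers in the collagen values was not tested.

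Collagen transcripts took a slightly smaller share of the overexpression library. They held 0.561% of its counted fragments (0.558 to 0.565), or 91515 fragments, and 0.616% of those of the control library (0.612 to 0.620), or 96450 fragments. The ratio of the shares was 0.912 (0.904 to 0.920). COL1A1 and COL3A1 together made up 67.6% of the collagen fragments in the overexpression library and 69.6% in the control library. The other collagen genes held 29609 fragments in the overexpression library and 29279 in the control library, so most of the smaller share was that of COL1A1.

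No collagen gene past the filter differed by as much as 2-fold between the libraries in FPKM + 1. In the overexpression library 0 of 17 were higher by 2-fold or more, where 11.9% of all genes past the filter were. By the same measure 0 of 17 were lower, where 0.444% of all genes were. The log2 ratio of FPKM + 1, overexpression over control, was above 0 for 5 collagen genes and below 0 for 12, with a median of -0.18 and a range of -0.81 to 0.74. Over all genes past the filter the median was 0.10. By the counting interval of the ratio, 5 of the 17 lay above 1, where 42.6% of all genes past the filter with whole fragments did. A further 10 lay below 1, where 32.2% of all genes did, and the intervals of COL3A1 and COL15A1 held 1. These intervals are narrow because many fragments were counted, and they say nothing of how far repeated cultures would spread.

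**Figure D1:**
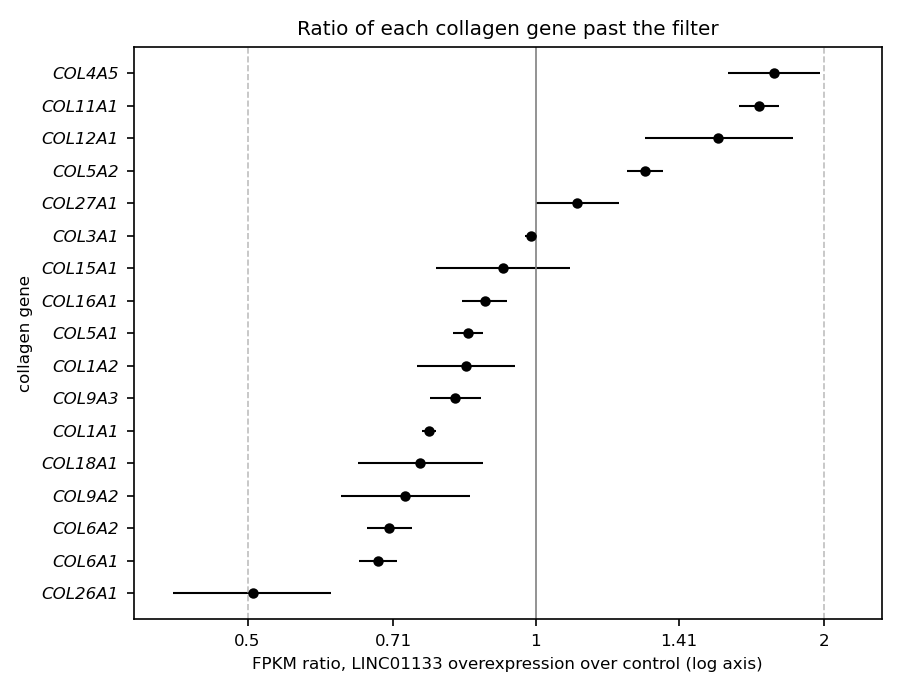
FPKM ratio of the 17 collagen genes past the filter, overexpression over control, on a log axis. Points are ratios, bars are 95% counting intervals, and dashed lines mark 0.5 and 2. COL4A5, COL11A1, COL12A1, COL5A2 and COL27A1 lie above 1, and COL26A1 lies lowest at 0.506.

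How far these directions hold depends on the scaling. Scaling by median of ratios or by trimmed mean of M values shifted the log2 ratio of FPKM of all genes by -0.21, and scaling by the upper quartile by -0.42. COL27A1 turned to lower under all 3 scalings and COL5A2 under the upper quartile. The other 15 collagen genes kept their direction under these scalings.

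Fibrillar chains held most of the collagen RNA, with 86.0% of the collagen fragments in the overexpression library and 84.3% in the control library. All 11 genes of the family were measured and 7 passed the filter, 3 with a log2 ratio above 0 and 4 below. In most of these genes the helix is coded by short exons that each begin with a whole glycine codon, and the unit of 54 bases holds 6 Gly-X-Y triplets. The longest unbroken Gly-X-Y run was 338 triplets in COL1A1, 339 in COL1A2, 343 in COL3A1, 338 in COL5A1, 339 in COL5A2, 338 in COL11A1 and 217 in COL27A1. Of the exons lying wholly in that run, 21 of 41 were 54 bases long in COL1A1, 24 of 42 in COL3A1, 31 of 48 in COL11A1 and 24 of 35 in COL27A1. Every exon wholly in the run was a multiple of 9 bases in each of these 7 genes. The first 54-base exon of the run is printed for each, 5′ to 3′ on the coding strand, from the GENCODE 29 transcripts on GRCh38, to show the repeat and its base composition in each gene; the exons were not aligned to one another. Capitals mark the glycine codon that opens each Gly-X-Y triplet, and other glycine codons are left in lower case.
COL1A1 exon 8: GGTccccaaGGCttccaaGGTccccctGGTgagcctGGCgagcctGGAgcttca
COL1A2 exon 8: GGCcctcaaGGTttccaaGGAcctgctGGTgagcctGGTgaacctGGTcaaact
COL3A1 exon 6: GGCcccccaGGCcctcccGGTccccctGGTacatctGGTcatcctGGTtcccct
COL5A1 exon 15: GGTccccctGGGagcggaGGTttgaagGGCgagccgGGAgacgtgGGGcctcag
COL5A2 exon 10: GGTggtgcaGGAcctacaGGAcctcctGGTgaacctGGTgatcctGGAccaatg
COL11A1 exon 15: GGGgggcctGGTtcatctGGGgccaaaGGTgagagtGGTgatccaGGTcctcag
COL27A1 exon 7: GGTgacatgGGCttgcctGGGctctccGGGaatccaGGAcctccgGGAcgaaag
These exons lie at chr17:50197949-50198002 (minus strand) for COL1A1, chr7:94404693-94404746 (plus) for COL1A2 and chr2:188988081-188988134 (plus) for COL3A1. The others lie at chr9:134753850-134753903 (plus) for COL5A1, chr2:189085719-189085772 (minus) for COL5A2, chr1:103008463-103008516 (minus) for COL11A1 and chr9:114195959-114196012 (plus) for COL27A1. Of the 6 codons in capitals, 3 end in G or C in COL5A1 and COL27A1, 2 in COL1A1, COL3A1 and COL11A1, 1 in COL1A2 and 0 in COL5A2.

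COL3A1 (ENSG00000168542), the chain of type III collagen found with type I in elastic tissues, was the most abundant collagen. It had 322 FPKM in the overexpression library (318 to 325) and 325 FPKM in the control library (322 to 329), from 36039 and 35012 fragments. The intervals overlapped, and the ratio was 0.989 (0.975 to 1.004). Among all listed genes it ranked 73 by FPKM in the overexpression library and 96 in the control library.

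COL1A1 (ENSG00000108821), the α1 chain of type I collagen, the main protein of bone, tendon and scar, was next. It had 162 FPKM in the overexpression library (159.6 to 164) and 209 FPKM in the control library (207 to 211), from 25867 and 32159 fragments. The intervals did not overlap, and the level was lower in the overexpression library at a ratio of 0.773 (0.760 to 0.786). COL1A2 (ENSG00000164692), the α2 chain of the same molecule, had 2.99 FPKM in the overexpression library (2.74 to 3.25) and 3.53 FPKM in the control library (3.26 to 3.82). Its ratio of 0.846 (0.752 to 0.951) lay below 1 as well.

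The common type I molecule pairs 2 α1 chains with 1 α2 chain, yet the RNA of COL1A1 exceeded that of COL1A2 by far more in both libraries. The ratio of their FPKM was 54.1 in the overexpression library (49.7 to 59.0) and 59.2 in the control library (54.7 to 64.2), and these intervals overlapped. A ratio of levels between genes depends on the exon length each count is divided by, and its interval does not cover that. COL1A1 was divided by 9819 exon bases and COL1A2 by 11156, where their coding transcripts have 6727 and 5411. The excess is thus smaller by transcript length. COL3A1 stood at 1.99 times COL1A1 in the overexpression library (1.96 to 2.02) and at 1.56 times in the control library (1.53 to 1.58). The balance of their RNA thus differed as deposited, while the interval of COL3A1 itself held 1. The transcript of COL3A1 had 52.1% GC and that of COL1A1 61.1%. Their log2 ratios were -0.02 and -0.37 as deposited, and 0.11 and 0.02 with the trends described below subtracted. The interval of COL3A1 is for the scaling as deposited. The log2 ratio of COL3A1 was -0.02 as deposited, -0.22 by median of ratios and -0.43 by the upper quartile.

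The chains of types V and XI sit inside fibres and limit their width. COL5A1 had 31.4 FPKM in the overexpression library (30.6 to 32.2) and 37.0 FPKM in the control library (36.1 to 37.9), a ratio of 0.849 (0.819 to 0.880). COL5A2 had 41.7 FPKM in the overexpression library (40.5 to 42.9) and 32.0 FPKM in the control library (31.0 to 33.1), a ratio of 1.30 (1.25 to 1.36). As deposited, the partners went opposite ways; both were lower under the upper quartile scaling, and both were above 0 with the trends described below subtracted. Their order by FPKM turned: COL5A1 over COL5A2 was 0.753 in the overexpression library (0.725 to 0.783) and 1.15 in the control library (1.11 to 1.20). FPKM divided COL5A1 by 11189 exon bases and COL5A2 by 7156, where their coding transcripts have 8471 and 7081. By transcript length COL5A1 stands higher against COL5A2 in both libraries, so how far the order turns depends on that length. The lower ratio in the overexpression library does not.

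COL11A1, a minor fibrillar chain known from cartilage and from the stroma of carcinomas, had the largest log2 ratio of the collagen genes past the filter. It had 34.7 FPKM in the overexpression library (33.7 to 35.7) and 20.3 FPKM in the control library (19.5 to 21.1), from 4681 and 2632 fragments. These intervals lay apart, with a ratio of 1.71 (1.63 to 1.79) and a log2 ratio of 0.74. It stood at 1.10 times COL5A1 in the overexpression library (1.06 to 1.15) and at 0.548 times in the control library (0.524 to 0.574). FPKM divided COL11A1 by 8281 exon bases and COL5A1 by 11189, where their coding transcripts have 7327 and 8471. The side of 1 on which the ratio in the overexpression library lies depends on that length. That the ratio was higher in the overexpression library than in the control library does not depend on it. Its partner COL11A2 was low, with 0.410 FPKM in the overexpression library and 0.388 FPKM in the control library, from 45 and 41 fragments.

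COL27A1, a fibrillar chain of cartilage, had 3.79 FPKM in the overexpression library (3.54 to 4.05) and 3.43 FPKM in the control library (3.19 to 3.68). Its ratio of 1.11 (1.001 to 1.22) only just left out 1 and turned under the other scalings. Of the rest, COL2A1, the chain of cartilage type II collagen, had 16 fragments in the overexpression library and 15 in the control library. COL24A1 had 35 fragments in the overexpression library and 16 in the control library, a ratio of 2.102 (1.13 to 4.07). COL5A3, another type V chain, had 3 fragments in the overexpression library and 12 in the control library, a ratio of 0.240 (0.0435 to 0.890). These counts were too small to place the ratios closely.

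**Figure D2:**
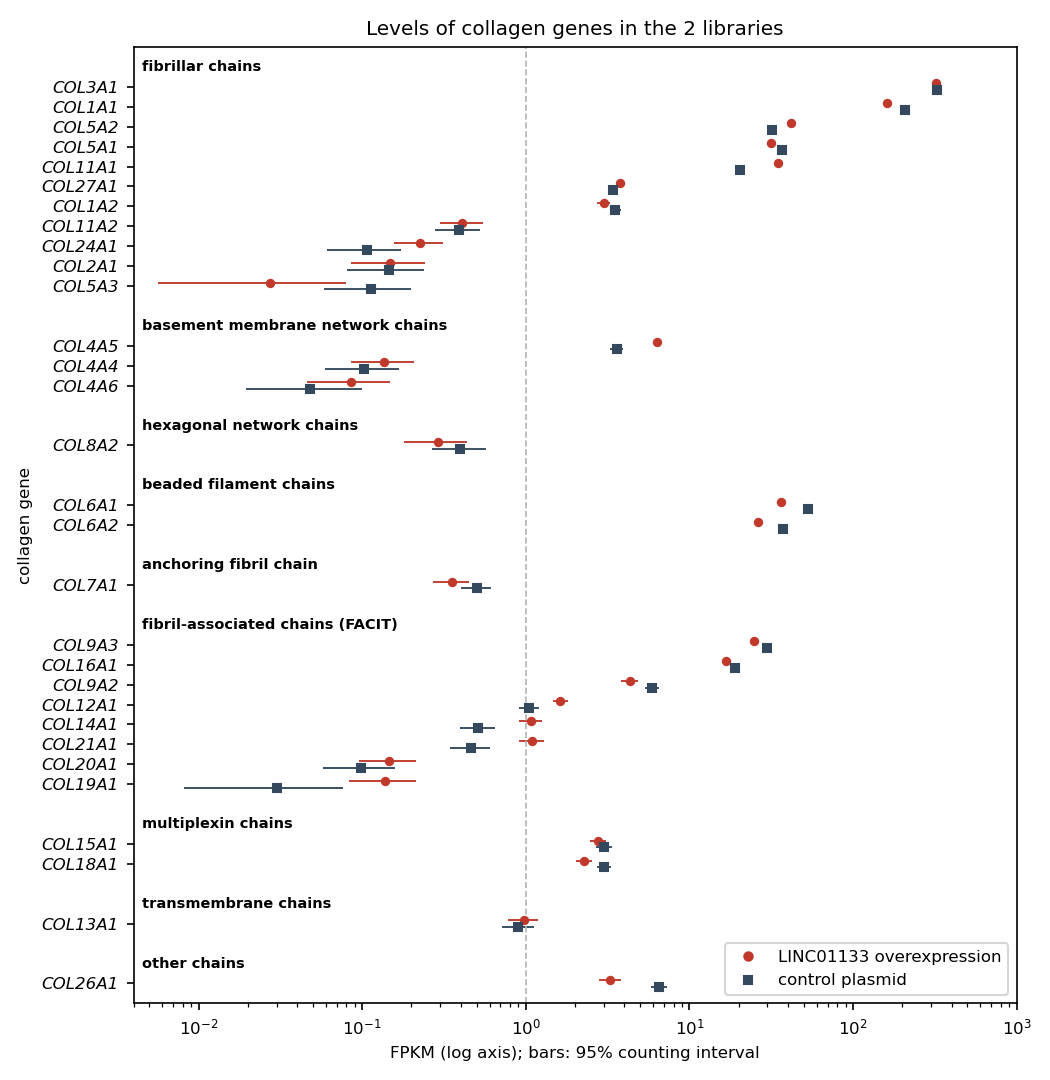
FPKM on a log axis of the collagen genes with more than 3 fragments in either library, grouped by family (red circles, overexpression library; dark squares, control library). Bars are 95% counting intervals and the dashed line marks 1 FPKM. COL3A1 and COL1A1 lie far right of all others in both libraries. COL5A2 and COL5A1 swap places in FPKM between the libraries, an order that depends on the exon length used for each.

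Type VI collagen forms beaded filaments around cells from an α1 chain, an α2 chain and another, larger chain. COL6A1 had 36.5 FPKM in the overexpression library (35.3 to 37.8) and 53.3 FPKM in the control library (51.8 to 54.9), a ratio of 0.685 (0.654 to 0.717). COL6A2, its neighbour on chromosome 21, had 26.2 FPKM in the overexpression library (25.1 to 27.3) and 37.2 FPKM in the control library (35.9 to 38.5), a ratio of 0.703 (0.666 to 0.742). Both were lower in the overexpression library, and they kept step: COL6A1 over COL6A2 was 1.40 in the overexpression library (1.32 to 1.47) and 1.43 in the control library (1.37 to 1.501). Both stayed lower under each scaling and with the trends described below subtracted, where their log2 ratios were -0.09 and -0.02.

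None of the measured genes for that larger chain came near those levels. COL6A3, the usual α3 chain, had 3 fragments in the overexpression library and 2 in the control library, or 0.00937 FPKM (0.00193 to 0.0274) and 0.00650 FPKM (0.000787 to 0.0235). COL6A5 and COL6A6, alternatives to it, each had 0 fragments in the overexpression library and 1 in the control library.

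Type IV collagen showed a like imbalance. COL4A5, an X-linked chain of the basement membranes of kidney and smooth muscle, had 6.37 FPKM in the overexpression library (5.97 to 6.80) and 3.59 FPKM in the control library (3.28 to 3.93). Its ratio of 1.77 (1.59 to 1.98) was the highest among the collagen genes past the filter. Several exon lengths gave whole fragments for this gene, and the fewest fragments, 908 in the overexpression library and 492 in the control library, were used, which gives the widest interval. Its usual neighbour and partner COL4A6 had 13 fragments in the overexpression library and 7 in the control library, and COL4A5 over COL4A6 was 74.2 in the overexpression library (43.2 to 139.9) and 74.7 in the control library (35.96 to 187).

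The chains of nearly every basement membrane, COL4A1 and COL4A2, were hardly read at all. COL4A2 had 0 fragments in both libraries. Its counting interval reached 0.0117 FPKM in the overexpression library and 0.0122 FPKM in the control library. A level of 3 fragments, the limit used for a count of 0, is 0.00954 FPKM in the overexpression library and 0.00993 FPKM in the control library. COL4A1 had 0 fragments in the overexpression library and 1 in the control library, the fewest its values allow. COL4A3 had 2 fragments in the overexpression library and 1 in the control library, and COL4A4 had 22 in the overexpression library and 16 in the control library.

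COL4A1 and COL4A2 lie head to head on chromosome 13, and their RefSeq start sites on GRCh38.p14 are 127 bases apart. Since the pair shares its promoter and both genes were at or near 0, the window of 300 bases around the COL4A1 start site is shown. It spans chr13:110307108-110307407 on the minus strand and shares 226 of its bases with the window of COL4A2. Capitals mark matches on either strand to CCAAT and GGGCGG, which do not overlap here.
COL4A1 promoter: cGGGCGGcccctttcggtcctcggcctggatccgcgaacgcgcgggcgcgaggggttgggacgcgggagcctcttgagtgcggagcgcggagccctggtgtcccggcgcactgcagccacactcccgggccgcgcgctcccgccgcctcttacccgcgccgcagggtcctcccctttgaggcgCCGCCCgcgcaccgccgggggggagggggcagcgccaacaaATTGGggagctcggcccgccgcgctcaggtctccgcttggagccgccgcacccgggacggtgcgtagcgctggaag
The window holds 1 match to CCAAT and 2 to GGGCGG, and none to TATAAA. Of 35116 RefSeq promoter windows of 300 bases, 34.6% hold CCAAT, 44.95% GGGCGG and 11.5% TATAAA on either strand. These matches describe the letters of the window only.

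Fibril-associated collagens decorate the surface of fibres. COL9A3, a chain of type IX collagen best known from cartilage, had 24.7 FPKM in the overexpression library (23.6 to 25.8) and 30.0 FPKM in the control library (28.8 to 31.2), a ratio of 0.824 (0.775 to 0.876). COL9A2, its partner, had 4.31 FPKM in the overexpression library (3.83 to 4.84) and 5.90 FPKM in the control library (5.33 to 6.53), a ratio of 0.731 (0.625 to 0.853). COL9A3 over COL9A2 was 5.72 in the overexpression library (5.06 to 6.49) and 5.08 in the control library (4.55 to 5.67), with overlapping intervals.

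COL16A1, a chain of skin and smooth muscle matrix, had 16.8 FPKM in the overexpression library (16.1 to 17.5) and 18.99 FPKM in the control library (18.3 to 19.7), a ratio of 0.885 (0.838 to 0.934). COL12A1, which bridges fibres in tendon and ligament, had 1.63 FPKM in the overexpression library (1.46 to 1.81) and 1.05 FPKM in the control library (0.910 to 1.20), a ratio of 1.55 (1.30 to 1.86). It was the lowest collagen gene that passed the filter.

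COL21A1 and COL14A1, a relative of COL12A1, lay just under the filter and were also higher in the overexpression library. COL21A1 had 126 fragments in the overexpression library and 51 in the control library, a ratio of 2.37 (1.70 to 3.35). COL14A1 had 152 fragments in the overexpression library and 69 in the control library, a ratio of 2.12 (1.58 to 2.86). COL19A1 had 19 fragments in the overexpression library and 4 in the control library, a ratio of 4.56 (1.52 to 18.45), and COL20A1 had 26 in the overexpression library and 17 in the control library. On the scale of FPKM + 1 the log2 ratios of COL21A1, COL14A1 and COL19A1 were 0.52, 0.46 and 0.14, since that scale understates differences of low genes.

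COL15A1 and COL18A1, the multiplexins, are basement membrane proteoglycans, and a fragment of the COL18A1 chain is endostatin, an inhibitor of vessel growth. COL15A1 had 2.78 FPKM in the overexpression library (2.47 to 3.11) and 3.003 FPKM in the control library (2.68 to 3.35), with overlapping intervals. COL18A1 had 2.27 FPKM in the overexpression library (2.03 to 2.54) and 3.002 FPKM in the control library (2.72 to 3.31), a ratio of 0.757 (0.651 to 0.880). It shares 16.4% of its exon bases with SLC19A1 on the opposite strand, so its reads cannot be told fully apart from that gene's.

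COL26A1, a secreted chain with a short helix, was the lowest in ratio of the collagen genes past the filter. It had 3.28 FPKM in the overexpression library (2.81 to 3.82) and 6.49 FPKM in the control library (5.80 to 7.24), from 169 and 321 fragments. These intervals lay apart, with a ratio of 0.506 (0.417 to 0.611) and a log2 ratio of -0.81.

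The remaining families were low. COL13A1, a transmembrane collagen of cell adhesion sites, had 0.969 FPKM in the overexpression library and 0.897 FPKM in the control library. COL7A1, which anchors epithelium to the tissue under it, had 64 fragments in the overexpression library and 87 in the control library, a ratio of 0.707 (0.504 to 0.988). COL8A2, of corneal and vessel matrix, had 22 fragments in the overexpression library and 29 in the control library. COL17A1, a transmembrane chain of epithelial hemidesmosomes, had 0 in both. COL10A1, the chain of growing cartilage, COL25A1 and COL28A1 had at most 3 fragments in either library. For COL23A1 the fewest fragments its values allow were 2 in the overexpression library and 0 in the control library. Detection hardly differed between libraries: 36 of the 41 measured genes had at least 1 fragment in the overexpression library and 37 in the control library.

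**Figure D3:**
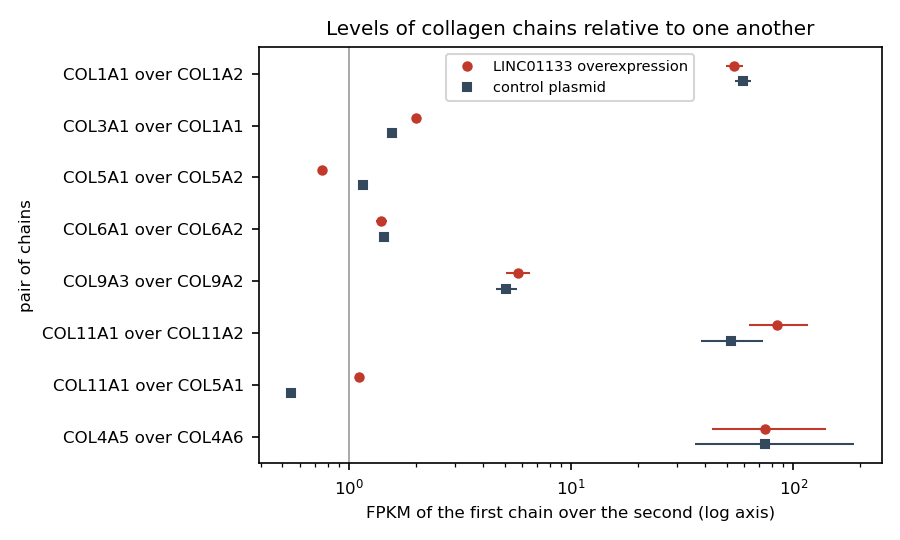
Ratio of FPKM between collagen chains within each library, on a log axis (red circles, overexpression library; dark squares, control library), with bars for 95% counting intervals. By FPKM, COL5A1 over COL5A2 and COL11A1 over COL5A1 lie on opposite sides of 1 in the 2 libraries, and COL1A1 over COL1A2 is above 54 in both. These positions depend on the exon length used for each gene, which the bars do not cover.

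The log2 ratios of the collagen genes were ordered by the base composition of their transcripts, as those of all genes were. Spearman's rho between the log2 ratio and transcript GC content was -0.801 over the 17 collagen genes and -0.801 over 11913 genes, given as a description, since all points share the same pair of libraries. Collagen transcripts were GC-rich, with a median of 61.1% GC and a range of 46.3% to 67.4%, against 49.0% for all genes past the filter. Of the 11 collagen genes at 55% GC or more, 10 were lower in the overexpression library, and of the 6 below 55%, 4 were higher. That 55% limit was set after the values were seen.

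**Figure D4:**
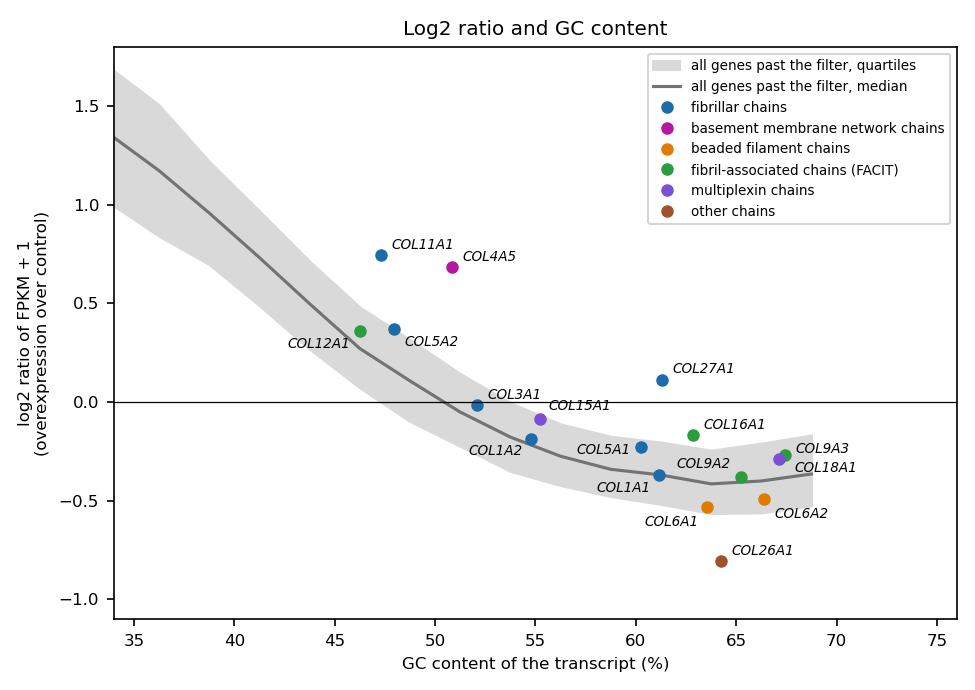
Log2 ratio of FPKM + 1 against transcript GC content for the 17 collagen genes past the filter, with the median (line) and quartiles (band) of all genes past the filter in bins of 2.5 points of GC content. Most collagen genes lie along the line, COL11A1, COL4A5 and COL27A1 lie farthest above the band and COL26A1 below it.

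The type V partners, opposite in direction as deposited, differed in GC content too. The COL5A1 transcript had 60.3% GC and that of COL5A2 had 47.9%. Outside the coding sequence, the figures were 52.5% for COL5A1 and 34.1% for COL5A2. Within the longest Gly-X-Y run, 47.6% of the glycine codons of COL5A1 ended in G or C and 29.2% of those of COL5A2, a difference that the exons printed above show on a small scale. COL6A1 and COL6A2, which kept step, had 63.5% and 66.4% GC.

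The order held in different stretches of the transcript. Across the 17 genes Spearman's rho was -0.833 with the GC content of the coding sequence, -0.826 with that outside it, and -0.884 with that of the longest Gly-X-Y run. It was -0.600 with the share of glycine codons in that run that end in G or C. These measures overlap and are correlated with each other, and the part of base composition in the differences between the libraries was not tested.

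When the trends of the log2 ratio on GC content and transcript length over all genes were subtracted, the collagen genes moved closer to the rest. Their median became 0.13, with a range of -0.32 to 0.74, where the quartiles of all genes were -0.10 and 0.28. COL1A1 then stood at 0.02 and COL3A1 at 0.11, and COL5A1 and COL5A2 at 0.14 and 0.24, both above 0. COL1A1, COL1A2, COL5A1, COL9A2, COL9A3, COL16A1 and COL18A1 all turned from below 0 to above 0. The subtraction adds back the median of all genes, 0.10 before it, so 0 is not the middle of the values after it. COL1A2, at 0.06, was at or above only 47.3% of all genes, and COL1A1 lay lower still. The same limit applies to the turns past 0 in the lists and settings below.

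A few genes stood away from others of like composition. COL4A5 was at 0.74 with the trends subtracted, at or above 95.9% of all genes past the filter. COL11A1 was at 0.57, at or above 92.5%, and COL27A1 at 0.50, at or above 89.8%. COL27A1 had 61.3% GC, and the 788 genes between 60% and 62.5% GC had quartiles of -0.52 and -0.20 before subtraction, where it had 0.11. COL26A1 remained lowest at -0.32, where 8.34% of genes were at or below it.

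The genes that modify, fold, cut, cross-link and bind collagen were read from lists of the pathway. The counts of each list are on FPKM + 1. They stand beside 11.9% of all genes past the filter at least 2-fold higher, 0.444% at least 2-fold lower and a median of 0.10. Some genes not counted as 2-fold higher had a ratio of FPKM itself above 2. These ratios were 2.03 for P4HA1 and FKBP14, 2.13 for ADAMTS3, 2.16 for FKBP7, 2.19 for MIA3 and 3.86 for FAP. The lowest FPKM ratio past the filter in these lists was 0.623, of SERPINH1. Of 14 enzymes of prolyl and lysyl hydroxylation and of glycosylation past the filter, 1 was 2-fold higher in the overexpression library, 0 were lower, and the median log2 ratio was -0.47. The gene past 2-fold was PLOD2, the lysyl hydroxylase of the collagen ends, with 9.19 FPKM in the overexpression library and 2.49 FPKM in the control library, a ratio of 3.69 (3.25 to 4.21). P4HA1, a catalytic prolyl 4-hydroxylase subunit, had 36.7 FPKM in the overexpression library and 18.1 FPKM in the control library. P4HB, the other subunit of that enzyme, had 128 FPKM in the overexpression library and 185 FPKM in the control library. P4HA2, an alternative catalytic subunit, had 3.38 FPKM in the overexpression library and 5.40 FPKM in the control library, a ratio of 0.626 (0.556 to 0.704). P4HA1 was thus higher and both P4HA2 and P4HB lower in the overexpression library, with 40.8% GC for P4HA1, 49.1% for P4HA2 and 58.4% for P4HB. PLOD1, a lysyl hydroxylase of the helix, had 27.9 FPKM in the overexpression library and 41.4 FPKM in the control library, and P3H3, a prolyl 3-hydroxylase family member, had 11.3 FPKM in the overexpression library and 17.1 FPKM in the control library. With the trends subtracted the median of the list was -0.02, PLOD2 was at 0.55, P4HA1 at 0.31, P4HA2 at -0.54 and P4HB at -0.10.

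Of 16 folding and export genes past the filter, 0 were 2-fold higher and 0 lower, 12 had a log2 ratio above 0 and the median was 0.31. FKBP14, a peptidyl-prolyl isomerase of procollagen, had 21.3 FPKM in the overexpression library and 10.5 FPKM in the control library. MIA3, the TANGO1 receptor that loads procollagen into carriers, had 7.84 FPKM in the overexpression library and 3.58 FPKM in the control library. FKBP7 had 8.40 FPKM in the overexpression library and 3.90 FPKM in the control library, and CANX, the chaperone calnexin, had 234 FPKM in the overexpression library and 127 FPKM in the control library. These 4 had the largest absolute log2 ratios of the list, all above 0. SERPINH1, the collagen chaperone HSP47, had the lowest log2 ratio of the list, -0.68, with 132 FPKM in the overexpression library and 212 FPKM in the control library. Subtracting the trends left a median of 0.03, with CANX at 0.23, MIA3 at 0.22, FKBP14 at 0.03 and FKBP7 at -0.06. SERPINH1 was then at -0.27, and the COPII coat genes SAR1B and SEC23A lay below it at -0.46 and -0.30.

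Of 6 measured genes of propeptide removal past the filter, 0 were 2-fold higher and 0 lower, with a median of -0.32. ADAMTS3, a procollagen N-proteinase, had 3.66 FPKM in the overexpression library and 1.72 FPKM in the control library. PCOLCE, the enhancer of C-proteinase, had 82.7 FPKM in the overexpression library and 122 FPKM in the control library, a ratio of 0.679 (0.654 to 0.704). FURIN, a convertase that activates such proteinases, had 9.02 FPKM in the overexpression library and 13.4 FPKM in the control library, and BMP1, the C-proteinase itself, had 7.63 FPKM in the overexpression library and 10.6 FPKM in the control library. Only ADAMTS3 of these 4 was higher in the overexpression library. With the trends subtracted the median turned to 0.07, ADAMTS3 was at 0.23, BMP1 turned to 0.02, PCOLCE was at -0.02 and FURIN at -0.09.

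Of 4 cross-linking enzymes past the filter, 1 was 2-fold higher, 0 were lower, and the median was -0.09. LOX, the lysyl oxidase that starts cross-links, had 22.2 FPKM in the overexpression library and 9.63 FPKM in the control library. Its relative LOXL1 had 18.7 FPKM in the overexpression library and 25.1 FPKM in the control library, LOXL2 had 11.6 FPKM in the overexpression library and 16.3 FPKM in the control library, and LOXL3 had 1.88 FPKM in the overexpression library and 1.48 FPKM in the control library. After subtraction of the trends LOX was at 0.28, where it had 1.13, the median turned to 0.20, LOXL1 turned to 0.11, and LOXL2 and LOXL3 were at -0.06 and 0.57.

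Of 7 fibril partners past the filter, 1 was 2-fold higher, 0 were lower, and the median was 0.04. That gene was POSTN, the matricellular protein periostin, with 98.8 FPKM in the overexpression library and 33.7 FPKM in the control library, a ratio of 2.93 (2.81 to 3.06). Small proteoglycans that bind fibrils differed among themselves. LUM, lumican, was higher in the overexpression library, as given above, with a ratio of 1.86 (1.74 to 1.98). DCN, decorin, had 21.1 FPKM in the overexpression library and 15.1 FPKM in the control library. BGN, biglycan, had 264 FPKM in the overexpression library and 392.4 FPKM in the control library, a ratio of 0.672 (0.655 to 0.689). With the trends subtracted the median turned to -0.09, POSTN was at 0.66, BGN was at -0.09, and LUM and DCN turned to -0.22 and -0.54.

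Of 4 collagen receptors past the filter, 1 was 2-fold higher, 0 were lower, and the median was 0.28. ITGB1, the β1 integrin subunit shared by the collagen-binding integrins, had 57.9 FPKM in the overexpression library and 28.4 FPKM in the control library, which is just at the 2-fold limit. DDR2, a receptor kinase for fibrillar collagen, had 21.8 FPKM in the overexpression library and 11.6 FPKM in the control library. DDR1, its epithelial relative, had 6.54 FPKM in the overexpression library and 8.63 FPKM in the control library, and MRC2, which takes up cleaved collagen, had 31.3 FPKM in the overexpression library and 38.3 FPKM in the control library. The α subunits that give integrins their collagen binding, ITGA1, ITGA2, ITGA10 and ITGA11, were all under 0.5 FPKM in both libraries. Subtracting the trends left a median of 0.15, with ITGB1 at 0.22, under the 2-fold limit, and DDR2 at 0.17, while DDR1 and MRC2 turned to 0.08 and 0.13.

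Of 13 measured genes of collagen breakdown, 10 passed the filter, 1 was 2-fold higher, 0 were lower, and the median was -0.25. MMP1, MMP3 and MMP8 were not analysed here. MMP16, a membrane-type protease, had 6.22 FPKM in the overexpression library and 1.40 FPKM in the control library, a ratio of 4.45 (3.90 to 5.10). FAP, a fibroblast surface protease, had 1.796 FPKM in the overexpression library and 0.465 FPKM in the control library. CTSB, a lysosomal cathepsin, had 23.3 FPKM in the overexpression library and 31.7 FPKM in the control library, and TIMP1, an inhibitor of matrix metalloproteinases, had 25.3 FPKM in the overexpression library and 34.2 FPKM in the control library. With the trends subtracted the median turned to 0.07, MMP16 was at 0.43, FAP at 0.06 and CTSB at -0.23, and TIMP1 turned to 0.07. Of the 5 genes of these lists past 2-fold in FPKM + 1, none remained past it after that subtraction.

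**Figure D5:**
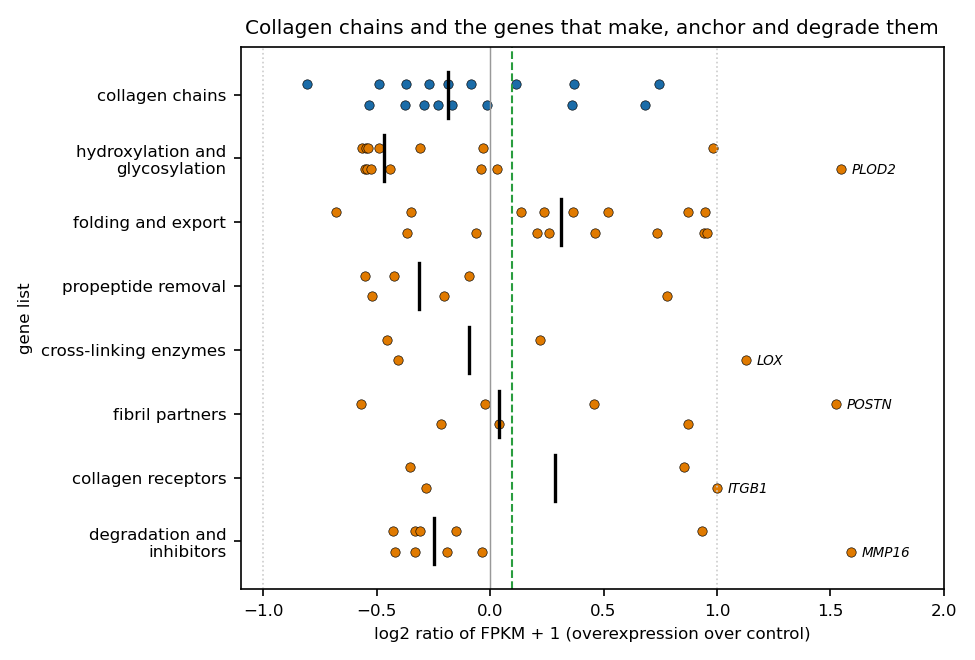
Log2 ratio of FPKM + 1 of the genes past the filter, for the collagen chains and 7 lists of the pathway. Points are genes, black bars are list medians, the dashed line is the median of all genes past the filter (0.10) and dotted lines mark 2-fold; the 5 genes past 2-fold are named.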

How the data were processed

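The authors deposited 1 value per gene for each of 2 libraries. The labels do not name the unit. The deposited values were read as FPKM. For most genes, value times merged exon length (GENCODE 29), divided by 1 constant per library, is a whole number of fragments, within 0.02. Of genes above 0, this held for 93.2% in the overexpression library and 92.9% in the control library. With genes at 0 included, which are whole under any constant, it held for 94.4% and 94.5% of genes with a length. The constant of each library gave the depth and the fragments behind each value. The tools were HISAT2 2.1.0, Bowtie2 2.2.3 and HTSeq 0.6.0, with the build GRCh38, per the submitters' processing notes. The annotation release and the strand setting of counting are not given in the sources used here, so antisense overlaps cannot be separated.

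Of the 41 collagen genes, 28 gave whole fragments with the GENCODE length and 10 with 1 other length between 50% and 150% of it. A further 3 (COL4A5, COL23A1 and COL4A1) allowed several lengths, and the fewest fragments were used. The search was checked on 580 genes of known length: 491 had 1 answer, and 491 of those were right. The known length lay inside the searched range for each of them, so the check shows mainly how often the answer is single. It cannot show that the true lengths of the 10 collagen genes lay in that range.

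The log2 ratio is that of FPKM + 1. Levels carry exact Poisson intervals, shares of fragments exact binomial ones, and ratios the conditional Clopper-Pearson interval. The labels name no molecular identifiers, so amplified copies may count more than once and intervals cover counting error only. The limit for a count of 0 is 3 fragments. GC content and length are those of the longest coding transcript that has a 3′ UTR. Trends on both were drawn by lowess (span 0.3) with statsmodels 0.14.6, numpy 2.4.6, pandas 2.3.3, scipy 1.17.1, and subtracted, keeping the median. The depth, call, ratio interval, scaling and trend steps were run on simulated data with counting error only. Large changes were placed in well-expressed genes, so this covers neither low genes nor the spread between repeated cultures. The length search was not part of it. Promoter windows are from RefSeq.

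The collagen genes, the pathway lists and the markers were chosen with earlier results of these data known. Every collagen gene past the filter is named with its values, the others by value, fragments or range, and in each pathway list the genes past 2-fold and up to 4 with the largest absolute log2 ratio; P4HA2, P4HB, SERPINH1, SAR1B, SEC23A and the integrin α subunits were chosen after their values were seen. Alternatives were other scalings, filters, a pseudocount, a fold threshold and the subtraction of trends.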

Additional observations from a re-analysis of the deposited data

How the results depend on the processing

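Each group held 1 library, so no setting could leave one out. No paired analysis was possible because there was 1 library on either side. The median log2 ratio of the collagen genes past the filter, -0.18, was -0.36 by median-of-ratios scaling and by trimmed mean of M values, -0.56 by the upper quartile, 0 with no filter, -0.13 at a mean FPKM of at least 0.5 and -0.25 at 5 or more. It turned to 0.13 with both the GC and the length trend subtracted, 0.19 with the GC trend alone, and 0.13 with both trends taken from the longest transcript of any type, an alternative chosen after seeing the data. With both trends subtracted COL1A1 turned to 0.0219, COL5A1 to 0.14, COL9A3 to 0.24, COL16A1 to 0.25, COL9A2 to 0.11, COL1A2 to 0.0631 and COL18A1 to 0.13. With the GC trend alone these were 0.0875, 0.21, 0.21, 0.31, 0.11, 0.12 and 0.19. By the longest transcript of any type COL1A1 turned to 0.0223, COL5A1 to 0.14, COL9A3 to 0.25, COL16A1 to 0.25, COL9A2 to 0.12 and COL18A1 to 0.12, while COL1A2 moved to -0.81 because that transcript is another one with less GC. COL27A1 turned to -0.0469 by median of ratios and to -0.0470 by trimmed mean of M values and to -0.21 by the upper quartile, where COL5A2 turned to -0.0396. The count of collagen genes at least 2-fold lower was 1 by the upper quartile (COL26A1), and at a threshold of 1.5-fold 1 was lower (COL26A1) and 2 higher (COL11A1 and COL4A5). Other settings left both counts at 0.

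Over all genes past the filter, 1421 were higher and 53 lower by 2-fold or more. By median of ratios and by trimmed mean of M values these were 941 and 103, by the upper quartile 583 and 465, at a mean FPKM of at least 5 they were 656 and 10, with a pseudocount of 0.1 they were 2244 and 127, and at 1.5-fold they were 3199 and 632. Subtracting both trends gave 195 and 95, with the GC trend alone 216 and 85, and with the other transcript choice 204 and 95. With no filter, and at a mean FPKM of at least 0.5, 1616 were higher and 109 lower. The cause of these movements was not tested beyond what each setting changes by construction. Depth limits the genes with few fragments: 29 of 41 collagen genes had more than 3 fragments in the overexpression library and 30 in the control library. The fewest fragments were taken where several lengths fit.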
